A study of Mus musculus with 6 samples.

Results

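The genes of MHC class I antigen presentation and of the proteasome that feeds it were followed in macrophage-rich myeloid cells of the infarcted neonatal mouse heart. The group comprised 39 genes taken by symbol from the 19057 genes named on the array, and it was divided by role into 10 class I chain genes, 9 genes of peptide loading and its control, 6 genes of the immunoproteasome and the PA28 activators, and 14 genes of the constitutive proteasome core. The cells were CD11b-positive and Ly6G-negative, sorted from hearts of ICR mice, an outbred stock, at 3 days after the left anterior descending coronary artery was tied off. The infarct was made at postnatal day 1 (P1) or day 14 (P14), 3 arrays were run per age, the sexes were mixed, and no uninjured heart or other age was included. No treatment, transgene or deletion is given for either group, and nothing says whether an array came from 1 animal or from a pool, so p-values measure only the spread between these arrays, which may be technical. Newborn mice can rebuild injured heart muscle and older pups cannot, and the comparison asks how these cells differ between the ages after the same injury.

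MHC class I molecules show peptides from inside a cell to CD8 T cells. A polymorphic heavy chain pairs with beta-2 microglobulin in the endoplasmic reticulum and receives a peptide there that the proteasome has cut in the cytosol and the TAP transporter has carried across the membrane. The proteasome core has catalytic beta subunits that can be exchanged for interferon-inducible ones during assembly, which gives the immunoproteasome and changes which peptides are cut. Interferons raise heavy chains, transporter and immunosubunits together, and macrophages, which keep the pathway switched on, use it to present what they take up as well as their own proteins.

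Promoter sequences are shown first because the genes compared below are classically regulated by shared elements at their start. Promoter windows of RefSeq (GRCm38.p6), from 250 bases before to 50 bases after the annotated start, were at hand for 31 of the 39 genes. Bases -200 to -1 are printed for H2-K1 and H2-T23, heavy chain genes that were lower in P1, for B2m, which did not pass the test, and for the pair of Psmb8 and Psmb5, an immunosubunit and the subunit it replaces. For Tap1 the bases up to its start are printed as far as they go, since they are all that separates it from the start of Psmb9 on the other strand. Capitals mark matches on either strand to the interferon-stimulated response element core (ISRE, GAAANNGAAA), the gamma-activated site (GAS, TTCNNNGAA), the Y box (CCAAT) and the antioxidant response element core (ARE, TGACNNNGC).
H2-K1, chr17:34000348-34000547, minus strand: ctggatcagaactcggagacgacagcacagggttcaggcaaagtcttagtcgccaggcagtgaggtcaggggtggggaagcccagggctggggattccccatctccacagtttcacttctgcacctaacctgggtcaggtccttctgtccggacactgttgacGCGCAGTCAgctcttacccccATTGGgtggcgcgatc
H2-T23, chr17:36032702-36032901, minus strand: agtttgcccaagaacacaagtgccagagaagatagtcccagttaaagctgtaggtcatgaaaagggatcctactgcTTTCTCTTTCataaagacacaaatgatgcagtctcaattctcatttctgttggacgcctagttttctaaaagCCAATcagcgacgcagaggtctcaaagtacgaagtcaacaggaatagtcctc
B2m, chr2:122147487-122147686, plus strand: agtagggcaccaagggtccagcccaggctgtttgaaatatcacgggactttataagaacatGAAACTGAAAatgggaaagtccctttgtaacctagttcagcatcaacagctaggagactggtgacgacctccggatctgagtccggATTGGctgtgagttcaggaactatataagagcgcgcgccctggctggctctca
Tap1 (Psmb9 starts at the far end on the other strand), chr17:34187331-34187555, plus strand: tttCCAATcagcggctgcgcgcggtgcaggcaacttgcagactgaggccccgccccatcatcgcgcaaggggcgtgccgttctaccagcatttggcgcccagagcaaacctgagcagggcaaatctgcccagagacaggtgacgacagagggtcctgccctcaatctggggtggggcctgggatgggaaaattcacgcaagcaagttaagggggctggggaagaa
Psmb8, chr17:34197995-34198194, plus strand: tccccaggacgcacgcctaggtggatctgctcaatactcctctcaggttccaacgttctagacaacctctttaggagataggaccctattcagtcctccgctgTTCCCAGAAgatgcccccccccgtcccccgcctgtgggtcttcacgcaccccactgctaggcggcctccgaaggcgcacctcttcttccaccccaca
Psmb5, chr14:54617996-54618195, minus strand: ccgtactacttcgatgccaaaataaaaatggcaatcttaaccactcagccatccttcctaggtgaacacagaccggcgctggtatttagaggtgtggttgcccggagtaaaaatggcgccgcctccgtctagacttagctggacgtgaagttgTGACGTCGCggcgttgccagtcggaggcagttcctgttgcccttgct

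The ISRE core lay at -124 to -115 of H2-T23, on the minus strand of the gene, and at -139 to -130 of B2m. Both also held a Y box, at -52 to -48 in H2-T23 and at -53 to -49 in B2m, H2-K1 held one at -16 to -12, and the stretch before Tap1 held one at -222 to -218. H2-K1 carried an ARE core at -37 to -29. Psmb8 carried a GAS, a pattern that matches on both strands, at -97 to -89, and Psmb5 an ARE core at -47 to -39. Over all members with a window, the ISRE core was found in 19.4% (6 of 31: B2m, H2-T22, H2-T23, Erap1, Psme1 and Psmb3) against 3.44% of all 32851 windows. The Y box was found in 67.7% against 37.4%, the ARE core in 19.4% against 12.4% and the GAS in 6.45% against 8.30%. A member gene counted when any of its windows matched, whereas the share over all is one of single windows. These shares are therefore in unlike units, and a gene with several windows has more chances to match. The marked and counted motifs are matches of letters within a short window and were not tested as binding sites. Only exact matches were counted, so a site that departs from these letters would be missed. A gene without a match, such as H2-K1 for the ISRE core, is therefore not shown to lack the element.

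Of the 39 members, 34 had a probe above background and were tested, and 7 of these were lower and 1 was higher in P1, against 20.1% of all genes called in either direction. A probe was kept when its intensity exceeded a floor of 127, the level that marks the upper edge of background, on at least 3 arrays, and each gene was represented by its brightest kept probe. Log2 intensities were compared with limma, and a gene was called at a Benjamini-Hochberg adjusted p under 0.05 over all 10441 genes tested, of which 9.68% were called lower and 10.5% higher in P1. The lower members were the heavy chain genes H2-T23, H2-K1 and H2-Q8, the transporter gene Tap2, and the core subunit genes Psmb5, Psma2 and Psma5, and the higher one was the core subunit gene Psma4. So 7 of 34 members stood against a background of 9.68%, and 1 of 34 against 10.5%. The log2 fold change, P1 minus P14, was negative in 24 and positive in 10 members, with a median of -0.17. Over all genes it was negative in 5030 and positive in 5411, with a median of 0.0083. H2-T22, Canx, Psma1, Psma3 and Psma6 had only probes that did not exceed the floor on enough arrays, and are not described further. Canx and the core subunits are expressed in nearly every cell, so a probe at background does not show that the gene was silent.

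**Figure D1:**
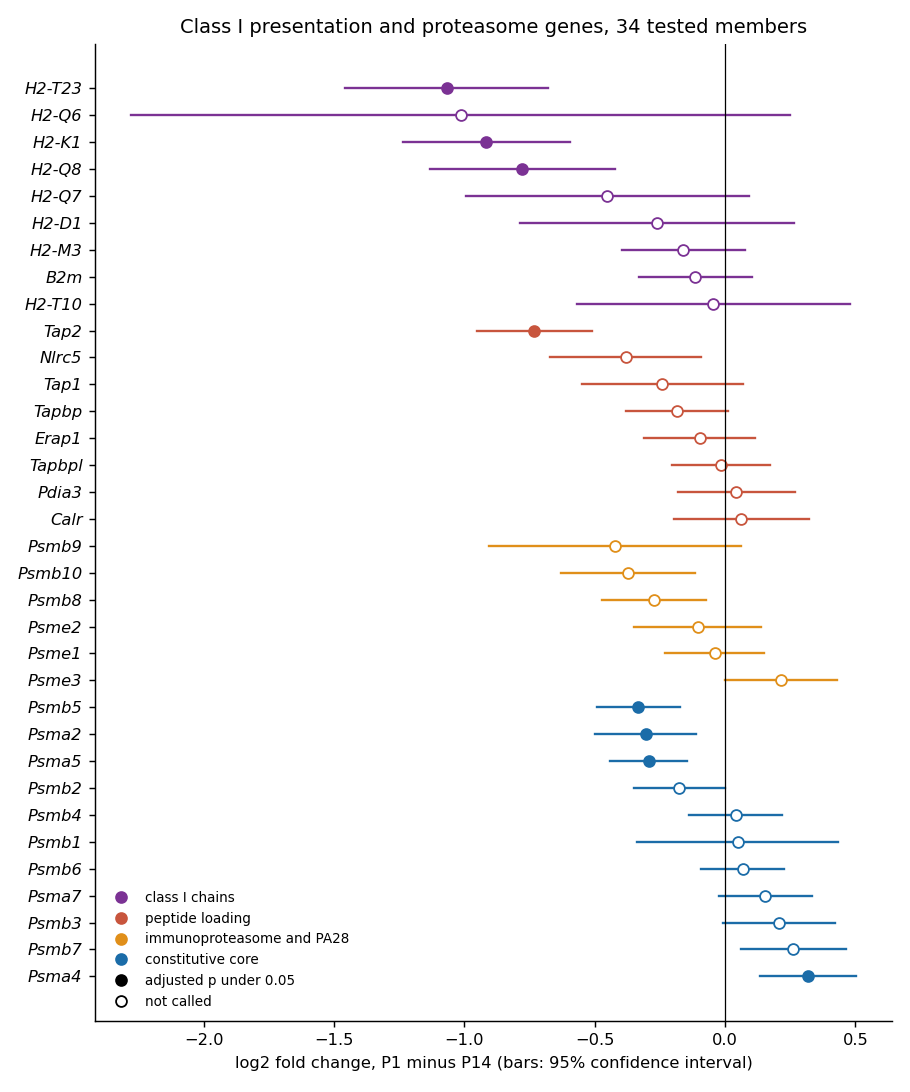
Log2 fold change (P1 minus P14, x axis) of the 34 tested genes, grouped by role, with 95% confidence intervals from limma; filled points passed an adjusted p of 0.05. All 9 class I chain genes lie left of 0, whereas the constitutive core genes lie on both sides, from -0.33 (Psmb5) to 0.32 (Psma4).

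The arrays shared one distribution of intensities with a median of 121, so the values below are on one scale, with background left in. Folds are therefore understated for dim probes. The sorted material was checked against markers of other cells, given here as the summed intensity of each list's tested genes. Markers of the gate and of macrophages summed to 37395 to 40754 in P1 and 32412 to 37452 in P14. Of the 7 tested genes of this list, 5 had a negative and 2 a positive log2 fold change, with a median of -0.07. The positive ones were the macrophage receptors Csf1r and Mrc1, 1.77-fold and 2.02-fold higher in P1 (limma adjusted p = 0.00235 and 0.00152). Ptprc, the pan-leukocyte CD45 gene, was 1.33-fold lower (adjusted p = 0.0254). Of 4 tested dendritic cell genes, which summed to 585 to 624 in P1 and 699.8 to 760.0 in P14 without overlap, Siglech was lower (adjusted p = 0.0216), and this call and that of Ptprc ended without 3 and 5 of the single arrays. The sum holds kept genes only, and the probes of Flt3, Xcr1, Clec9a and Cd209a were not above the floor. The B cell gene Cd79b was 2.07-fold higher in P1 (adjusted p = 0.00177), with Ms4a1 and Pax5 not above the floor. Of 7 tested neutrophil genes 5 were higher and 1 lower in P1, with sums of 15007 to 21740.5 in P1 and 8469.9 to 12249 in P14, and no probe carried the name of Ly6g, the gene behind the sort. Of 6 tested cardiomyocyte genes 4 were higher in P1 and none lower, with sums of 3585 to 7411 in P1 against 1419.9 to 1704 in P14. Of 6 tested fibroblast genes only Col1a1 was called, 2.76-fold higher in P1 (limma adjusted p = 0.00435), and the sums overlapped at 2334.5 to 3739 in P1 and 2336 to 2583.5 in P14. No endothelial gene was called, with sums of 1229 to 1826 and 1035 to 1416. The 2 tested erythroid genes, neither called, summed to 21627 to 28783 in P1 and to 15105, 19415 and 31124 on P14 replicates 1, 2 and 3. Of 8 T and NK cell markers with a probe, Cd3e and Cd3d were kept, summing to 242 to 259 in P1 and 248 to 256 in P14, and the probes of Cd3g, Cd8a, Nkg7, Gzmb, Klrb1c and Ncr1 were not above the floor. The part that these cells play in the values below was not tested, and fewer cells of a type and less RNA per cell cannot be told apart in sorted bulk material.

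The largest log2 fold changes among the members were in heavy chain genes. H2-T23 encodes the Qa-1 chain, a nonclassical class I molecule read by receptors of NK and CD8 T cells. Its brightest probe read 1012, 887 and 983 on P1 replicates 1, 2 and 3, and 2327, 2339.6 and 1492 on the P14 arrays. All P14 arrays lay above all P1 arrays, and P14 replicate 3 was the lowest of its group. The gene was 2.10-fold lower in P1 (log2 fold change -1.07 ± 0.17, SE, n = 3 arrays per age, limma adjusted p = 0.00613).

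H2-K1, the classical K chain that presents peptide to CD8 T cells, read 924, 876 and 932 in P1 and 1441, 1628 and 2165 in P14. Here P14 replicate 3 was the highest array, and the P1 arrays lay close together. The gene was 1.89-fold lower in P1 (-0.92 ± 0.14, SE, n = 3 per age, limma adjusted p = 0.00527). H2-Q8, of the Qa-2 family of nonclassical chains, read 505, 411 and 509 in P1 and 744, 697 and 1029 in P14, again with P14 replicate 3 highest and no overlap, and was 1.72-fold lower in P1 (-0.78 ± 0.15, SE, n = 3 per age, limma adjusted p = 0.0132). The log2 fold changes of H2-T23, H2-K1 and H2-Q8 lay within the lowest 0.268%, 0.479% and 0.977% of all genes tested. These 3 calls and that of Tap2 were kept under each of 15 alternative settings of the analysis, including removal of any array. Their adjusted p did not exceed 0.0448. In the setting with probes fitted separately, only the brightest probe of each gene was counted. The dimmer kept probe of H2-Q8 did not overlap between the ages but did not pass (-0.52, limma adjusted p = 0.123 over all kept probes).

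The other chain genes did not pass, although each had a negative log2 fold change, as did 5030 of all 10441 genes. The sign of H2-T10 turned without single arrays (-0.304 to 0.115). A probe can read more than one heavy chain gene, so their signs may not be separate observations. H2-D1, the classical D chain, read 10431, 5425 and 9391 in P1 and 8861, 9252 and 11187 in P14. The ages overlapped and P1 replicate 2 stood lowest (-0.26, 95% confidence interval -0.79 to 0.26, limma adjusted p = 0.474). Without P1 replicate 2 the log2 fold change was 0.027, and with the mean of its 4 kept probes it was -0.74 and the gene passed (limma adjusted p = 0.0237). B2m, the invariant light chain that all class I molecules share, was among the brightest members at 13578, 14548 and 12924 in P1 and 16573, 14590.2 and 13385 in P14, and the ages overlapped (-0.11, interval -0.33 to 0.10, adjusted p = 0.448). H2-M3, a chain that presents formylated peptides, ranged from 604 to 754 in P1 and from 729 to 818 in P14 (-0.16, interval -0.40 to 0.08). The Qa-2 family gene H2-Q7 ranged from 272 to 491 in P1 and from 472 to 688 in P14 (-0.45, interval -0.99 to 0.09). H2-Q6, of the same family, read 445, 150.5 and 197 in P1 and 764, 691 and 206 in P14. P14 replicate 3 thus lay among the P1 arrays, and the interval was wide (-1.02, -2.28 to 0.25, adjusted p = 0.233). Without P14 replicate 3 the log2 fold change was -1.62 and the gene passed (limma adjusted p = 0.0337).

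**Figure D2:**
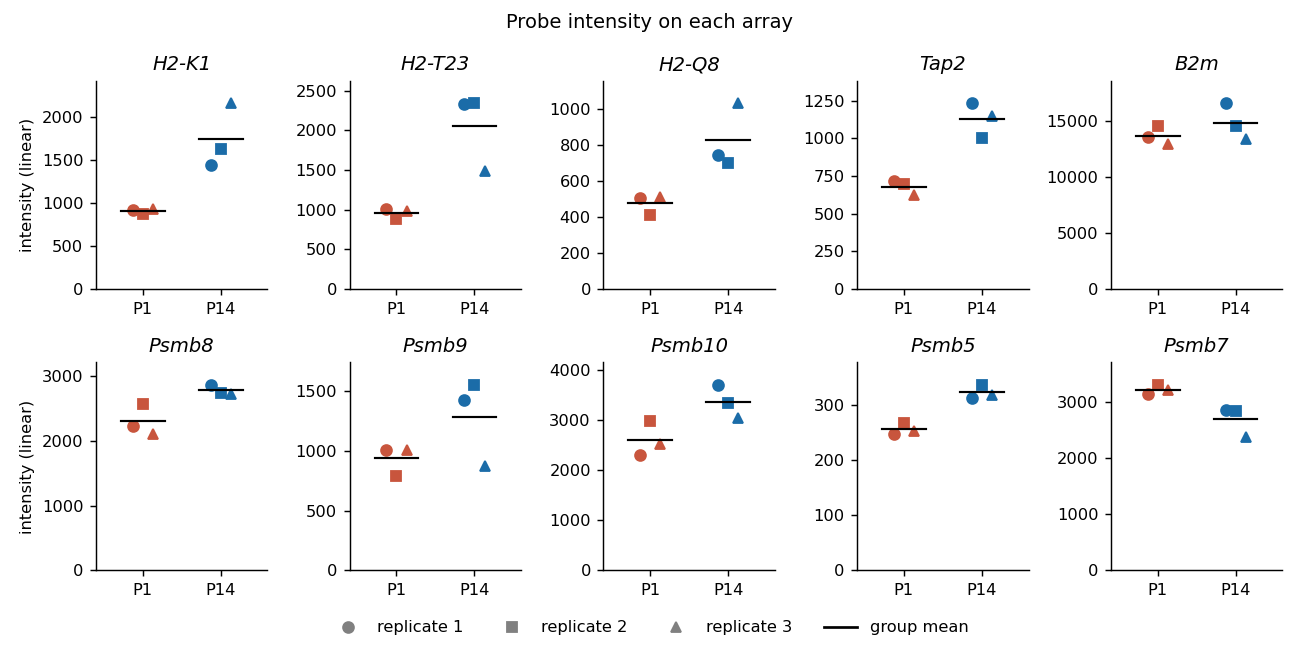
Linear probe intensity (y axis, from 0) of 10 genes on each of the 6 arrays, by age at infarction, with a horizontal line at the group mean. H2-K1, H2-T23, H2-Q8 and Tap2 show no overlap between the ages, B2m overlaps, and P14 replicate 3 lies among the P1 arrays for Psmb9 (874).

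Probes for one heavy chain gene did not tell one story. Heavy chain genes are near-identical to each other and highly polymorphic, the mice were outbred, and a probe can read more than one of them. Levels of single heavy chain genes are therefore uncertain. H2-D1 had 4 kept probes. Its dimmest read 127, 956 and 134 in P1 and 2386, 2264 and 290.2 in P14, a wide spread within each age. Its log2 fold change was -2.20 with a standard error of 0.98 (adjusted p = 0.163 over 16143 kept probes fitted separately). On that probe P1 replicate 2 was the high P1 array, and on the brightest it was the low one.

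H2-T10, which RefSeq lists as a transcribed pseudogene, showed the same disagreement. Its brightest probe read 386, 262 and 346 in P1 and 402, 405 and 235 in P14, which overlapped (-0.04). Its second probe read 126, 175 and 114 in P1 and 514, 407 and 161 in P14 (-1.25 ± 0.39, SE, adjusted p = 0.0613). Its dimmest read 155, 179 and 146 in P1 and 221, 228 and 236 in P14 without overlap (-0.52 ± 0.087, SE, n = 3 per age, limma adjusted p = 0.00842). For H2-T23 the probes agreed in size: the second read 907, 739 and 643 in P1 and 1983, 2044 and 1042 in P14 (-1.10, limma adjusted p = 0.0233), and the dimmest had -1.20 but overlapped, since P14 replicate 3 read 119 against 452 and 592 on the other P14 arrays. Both dimmer probes of H2-K1 overlapped between the ages, so 1 of its 3 probes passed when fitted separately. The dimmer ones had -0.87 and -0.32 (limma adjusted p = 0.176 and 0.152 over all kept probes). H2-K1 was also called with the mean of its 3 kept probes. The second H2-K1 probe read 409, 201 and 248 in P1 and 728, 663 and 259.6 in P14. Its P14 replicate 3 was the lowest P14 array, against the highest on the brightest probe.

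P14 replicate 3 therefore went both ways within the heavy chains. Of the 19 kept heavy chain probes it was the lowest P14 array on 9 and the highest on 8, against 37.0% and 36.1% of all kept probes. On 6 of the 19 (31.6%) it was at least 1 log2 unit below the mean of the other P14 arrays, against 0.273% (44 of 16143) of all kept probes with a gene. This limit was chosen after the values were seen. P14 replicate 3 was also the P14 array lowest in interferon-stimulated genes: 9 such genes summed to 13383 on P14 replicate 1, 13027 on replicate 2 and 5511 on replicate 3, close to the 5444 of P1 replicate 2 and above the 4170.4 and 3023 of P1 replicates 1 and 3. The part of this in the heavy chain values was not tested.

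**Figure D3:**
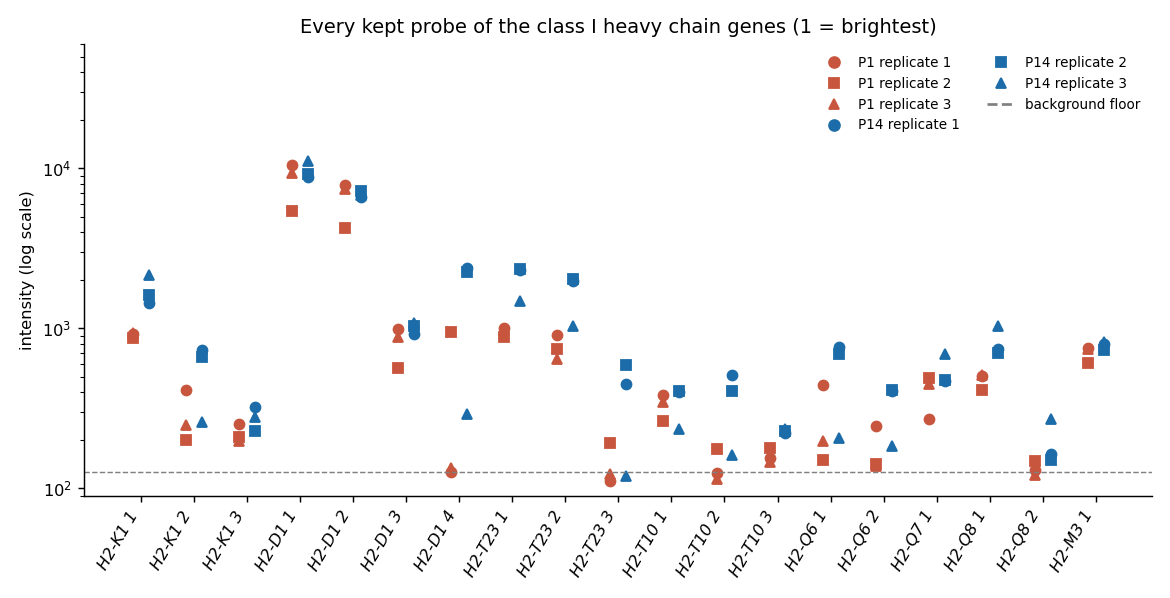
Intensity (log scale) of each of the 19 kept probes of the class I heavy chain genes on every array, with probes numbered from the brightest within each gene and the background floor of 127 dashed. P14 replicate 3 (blue triangle) lies far below the other P14 arrays on the fourth H2-D1 probe (290.2 against 2386 and 2264) and above them on the first probes of H2-K1 and H2-Q8.

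In peptide loading 1 of 8 tested genes was called lower in P1, against 9.68% of all genes, and that was Tap2. It encodes one subunit of the transporter that carries peptides into the endoplasmic reticulum, and it read 714, 695 and 624 in P1 and 1233, 1003 and 1149 in P14, with no overlap. It was 1.66-fold lower in P1 (-0.73 ± 0.096, SE, n = 3 per age, limma adjusted p = 0.00329). Tap1, the other subunit, read 223, 231 and 184 in P1 and 257, 289 and 210.0 in P14, and overlapped (-0.24, interval -0.55 to 0.07, adjusted p = 0.246). The Tap1 probe lay not far above the floor of 127, where background shrinks a fold. After normexp background correction Tap1 had a log2 fold change of -0.31 and Tap2 one of -0.78. That correction adds an offset of 50 to every value, so folds of dim probes remain understated. Whether Tap1 and Tap2 differed from each other in their change was not tested.

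Nlrc5, the transactivator of class I genes, did not overlap between the ages at 202, 237 and 175 in P1 and 299.9, 247 and 251 in P14, yet did not pass (-0.38 ± 0.13, SE, limma adjusted p = 0.0680). It passed without P1 replicate 2 (adjusted p = 0.0374), with array weights and with robust moderation. Non-overlap of this kind, lower in P1, was seen in 11 of the 34 members and in 18.0% of all genes, and the reverse, all P1 arrays above all P14 arrays, in 2 members and in 20.6% of all genes. Tapbp, tapasin, which holds empty class I molecules at the transporter, had -0.18 on its brighter probe (adjusted p = 0.166). Its dimmer probe read 164, 165 and 148 in P1 and 215, 207 and 204 in P14 (-0.39 ± 0.071, SE, n = 3 per age, limma adjusted p = 0.0104). With the mean of its kept probes Tapbp had -0.289 and passed (limma adjusted p = 0.0281). Tapbpl, a tapasin-related peptide editor, had -0.02 (interval -0.21 to 0.17), and Erap1, which trims peptides in the endoplasmic reticulum, -0.10 (interval -0.31 to 0.12) with its probe at the floor. The chaperone calreticulin (Calr, 0.06, interval -0.20 to 0.32) and the disulfide isomerase of the loading complex (Pdia3, 0.04, interval -0.18 to 0.27) did not pass either.

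None of the 6 immunoproteasome and PA28 genes passed on its brightest probe, and the 3 catalytic immunosubunits had log2 fold changes between -0.42 and -0.27. At an unadjusted p under 0.05, Psmb8, Psmb10 and Psme3 passed, with p of 0.0137, 0.0106 and 0.0494, a threshold that 34.7% of all genes passed. Without single arrays, 0 to 2 of the 6 were called lower, 2 without P1 replicate 2 and 2 without P14 replicate 3. Psmb10 also passed on its brightest probe with the floor required on all 6 arrays (adjusted p = 0.0478), with robust moderation (0.0365) and with array weights (0.0244). Psmb8 passed with array weights (0.0347). With the mean of the kept probes 2 of the 6 were called lower, against 902 of all 10441 genes. These were Psmb10 (-0.542, limma adjusted p = 0.00789) and Psmb8 (-0.355, limma adjusted p = 0.0462). Psmb10, the inducible trypsin-like subunit, read 2308, 2969.9 and 2522 in P1 and 3699, 3332 and 3044 in P14, without overlap (-0.37 ± 0.11, SE, n = 3 per age, limma adjusted p = 0.0518). Its second probe, nearly as bright, separated the ages further at 2259.7, 2423 and 2048 in P1 and 3745, 3644 and 3607 in P14. On that probe it was 1.64-fold lower in P1 (-0.71 ± 0.078, SE, n = 3 per age, limma adjusted p = 0.00216 over all kept probes).

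Psmb8, the inducible chymotrypsin-like subunit, read 2237, 2578 and 2114 in P1 and 2868, 2745 and 2728 in P14. The ages did not overlap but the call missed the threshold (-0.27 ± 0.087, SE, n = 3 per age, limma adjusted p = 0.0608). Its dimmer probe read 421, 506 and 362 in P1 and 592, 611 and 530.4 in P14, and passed (-0.44 ± 0.12, SE, n = 3 per age, limma adjusted p = 0.0442). Over all kept probes fitted separately, 8.52% were called lower and 8.85% higher in P1, and of the 57 kept probes of members 13 were lower and 2 higher. Psmb9, the caspase-like site's inducible replacement, read 1009.8, 789 and 1008 in P1 and 1428, 1552 and 874 in P14 on its only probe, so that P14 replicate 3 lay within P1 (-0.42, interval -0.91 to 0.06, adjusted p = 0.197). Without that array Psmb9 had a log2 fold change of -0.68 and passed (limma adjusted p = 0.0132).

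No PA28 gene passed. Psme1 and Psme2 encode the interferon-inducible alpha and beta chains of the PA28 cap, and had -0.04 (interval -0.23 to 0.15) and -0.11 (interval -0.35 to 0.14). Psme3, the nuclear gamma chain, which interferon does not induce, read 792, 760.3 and 665 in P1 and 695, 605 and 608 in P14 and had a positive value (0.22 ± 0.093, SE, limma adjusted p = 0.143).

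Of the 11 tested genes of the constitutive core, 3 were called lower and 1 higher in P1, against 9.68% and 10.5% of all genes. Psmb5, the chymotrypsin-like subunit that Psmb8 replaces, read 247, 268 and 253 in P1 and 313, 337 and 318 in P14, without overlap, and was 1.26-fold lower in P1 (-0.33 ± 0.069, SE, n = 3 per age, limma adjusted p = 0.0149). The alpha ring subunits Psma2 (8025, 8990.3 and 7615 in P1; 10721, 9878 and 9789.5 in P14) and Psma5 (6158, 6298 and 6054 in P1; 7265, 7696 and 7728 in P14) were 1.24-fold and 1.23-fold lower (limma adjusted p = 0.0378 and 0.0182). Psma4, of the same ring, ran the other way at 3771, 3817 and 3712 in P1 and 3290.2, 3044 and 2753 in P14 (0.32 ± 0.080, SE, n = 3 per age, limma adjusted p = 0.0290). None of these groups overlapped between the ages. Psma2 failed the threshold without any single one of 5 arrays, as did Psma4, and Psma2 also after normexp correction (adjusted p = 0.0573), while Psma5 and Psmb5 failed it without P1 replicate 3 or P14 replicate 2. The highest adjusted p was 0.126, 0.0793, 0.0695 and 0.0564 in turn, each without P1 replicate 3, and no core gene was called lower without P1 replicate 3 or without P14 replicate 2.

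The remaining core genes did not pass. Psmb6, which Psmb9 replaces, read 6290.4, 5934 and 5999 in P1 and 5489, 6018 and 5891 in P14, with an interval of -0.09 to 0.23 around 0.07. Psmb1 (0.05), Psmb4 (0.04), Psma7 (0.15), Psmb3 (0.21) and Psmb2 (-0.18) were the other log2 fold changes. Psmb7, which Psmb10 replaces, had 4 kept probes that pointed different ways. The brightest read 3140.3, 3304 and 3209.9 in P1 and 2859, 2843 and 2379 in P14 (0.26 ± 0.087, SE, limma adjusted p = 0.0710). The second was higher in P1 (0.39, limma adjusted p = 0.0288), the next had 0.02, and the dimmest was lower in P1 at 754, 785 and 827 against 1067, 1102 and 1019 (-0.43 ± 0.069, SE, n = 3 per age, limma adjusted p = 0.00686). No direction is therefore given for Psmb7.

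The immunosubunits were then set against the constitutive subunits they replace. Each pair was compared through its log2 ratio within an array, which shows unequal change only, by an exact two-sided permutation test over the arrays, whose smallest possible p with 3 arrays against 3 is 0.1. The Psmb10 to Psmb7 ratio was lower in P1 by 0.63 on the log2 scale and did not overlap between the ages, with centred values of -0.45, -0.16 and -0.35 in P1 and 0.37, 0.23 and 0.35 in P14 (exact p = 0.1, 0.3 after adjustment over 3 pairs). It takes up the disagreement among the Psmb7 probes, and with the mean of the kept probes the difference was -0.60. The Psmb9 to Psmb6 ratio differed by -0.49, but its P14 values were 0.52, 0.51 and -0.29, so that replicate 3 overlapped with P1 (exact p = 0.3, adjusted 0.45). Without P14 replicate 3 the difference was -0.76. The Psmb8 to Psmb5 ratio differed by 0.06 with overlap (exact p = 0.5, adjusted 0.5), as Psmb8 (-0.27) and Psmb5 (-0.33) had similar log2 fold changes. With the mean of probes its sign turned (-0.02). No pair passed a threshold of 0.05, which this design cannot reach. As a description over genes, the median log2 fold change was -0.37 for the 3 immunosubunits, 0.07 for the 3 subunits they replace, and 0.05 for the 11 tested core genes. The last 2 medians take Psmb7 by its brightest probe (0.26), whereas its dimmest probe had -0.43. The contrast of medians and the Psmb10 to Psmb7 ratio therefore depend on the probe chosen for Psmb7.

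**Figure D4:**
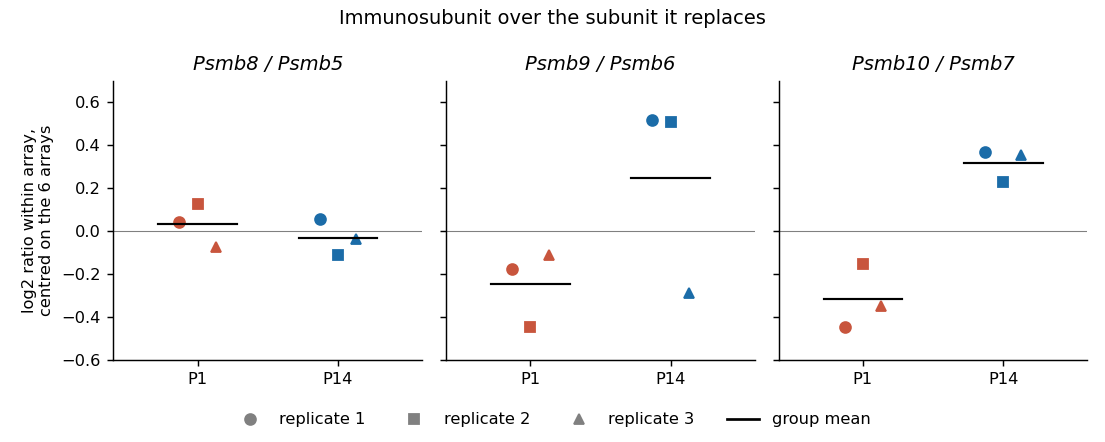
Log2 ratio of each catalytic immunosubunit over the subunit it replaces, within each array and centred on the mean of the 6 arrays (y axis), by age at infarction, with lines at the group means. The ratio does not overlap between ages for Psmb10 over Psmb7 and overlaps for the other pairs, for Psmb9 over Psmb6 through P14 replicate 3 at -0.29.

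Related genes around the pathway were counted by lists. The regulatory particle is the cap that unfolds ubiquitin-tagged proteins and feeds them to the core. Of its 19 tested genes 7 were lower and 1 higher in P1, against 9.68% and 10.5% of all genes, with a median of -0.13. Psmd14, the deubiquitinase of the cap, read 716, 587 and 638 in P1 and 1088, 1048 and 1118 in P14 and was 1.68-fold lower in P1 (-0.75 ± 0.086, SE, n = 3 per age, limma adjusted p = 0.00235). The ubiquitin receptor Psmd4 was 1.40-fold lower (adjusted p = 0.00482) and the lid subunit Psmd7 1.35-fold lower (adjusted p = 0.00749), although with the mean of its kept probes Psmd7 had -0.14 and did not pass (adjusted p = 0.305). Without single arrays 4 to 8 of these genes were called lower, the fewest without P1 replicate 1, P1 replicate 3 or P14 replicate 1. P14 replicate 3 did not stand apart here: the summed intensity of the 19 genes was 33091 to 33965 in P1 and 37204 to 40357 in P14. None of 7 tested assembly and activator genes passed under limma, and 1 had an unadjusted p under 0.05, the assembly chaperone Pomp (-0.24, unadjusted p = 0.0245, adjusted p = 0.0896), against 34.7% of all genes. The activator Psme4 had 0.00.

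Of 8 tested class I and class I-like chains outside the members, 1 was lower and 1 higher in P1, against 9.68% and 10.5% of all genes. These were H2-Q1, H2-Q5, H2-M2 and H2-M10.1, and the class I-like Cd1d1, Mr1, Hfe and Fcgrt, a set of another make-up than the member chains. Their log2 fold changes were negative in 1 and positive in 7, with a median of 0.18, unlike the member chains. H2-Q5 was lower at 1463, 2374 and 1430.2 in P1 and 2841, 2613 and 2575 in P14 (-0.65, limma adjusted p = 0.0416). That call ended without any single array other than P1 replicate 2 and with no filter on dim probes (adjusted p up to 0.129). H2-M2 was higher at 278, 344 and 267 in P1 and 196, 169.5 and 180.1 in P14 (0.70, limma adjusted p = 0.00573). Of 16 tested genes of peptide trimming and folding in the endoplasmic reticulum, 3 were lower and 1 higher, against 9.68% and 10.5% of all genes. Tpp2, a large cytosolic peptidase that cuts proteasome products, was 1.62-fold lower in P1 (limma adjusted p = 0.00356), the isomerase Pdia6 1.51-fold lower (adjusted p = 0.00550) and the isomerase subunit P4hb had -0.26 (adjusted p = 0.0476), a call lost under 7 of 15 alternatives.

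Among 19 tested genes of interferon signalling and class I control, 3 were lower and 2 higher in P1, against 9.68% and 10.5% of all genes. Their median log2 fold change was -0.04. Ifngr1, the ligand-binding chain of the interferon-gamma receptor, was higher in P1 at 2039, 2166 and 2141 against 1247, 1463 and 1602 (0.56 ± 0.098, SE, n = 3 per age, limma adjusted p = 0.00822), and the kinase Tyk2 was 1.31-fold higher (adjusted p = 0.0109). Irf9, which binds the ISRE together with STAT proteins, was 1.25-fold lower (adjusted p = 0.0251). Irf9 did not pass with the mean of its kept probes (adjusted p = 0.203), nor when P1 replicate 2 or 3, or P14 replicate 1 or 3, was left out. Of 9 tested interferon-stimulated genes 4 were lower and none higher, against 9.68% and 10.5% of all genes, with a median of -1.24. Oasl2 read 689, 718 and 550.2 in P1 and 2103, 1832 and 1112 in P14 (-1.33, limma adjusted p = 0.00749), the tether Bst2 was 2.72-fold lower (adjusted p = 0.0271) and the ubiquitin-like Isg15 2.36-fold lower with overlap between the ages (adjusted p = 0.0492). Oasl2 was called under each of 15 alternatives, whereas the call of Bst2 was lost under 6 (adjusted p up to 0.0979) and that of Isg15 under 9 (up to 0.148). Without P14 replicate 3, 8 of the 9 genes were called lower, and without P1 replicate 2, P1 replicate 3, P14 replicate 1 or P14 replicate 2, 1 was. The mean deviation of these genes from their 6-array mean was 0.90 and 0.86 on P14 replicates 1 and 2 and -0.16 on replicate 3. The corresponding values for the class I chains were 0.34, 0.31 and 0.16, and those for the immunoproteasome and PA28 genes 0.20, 0.12 and -0.07.

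**Figure D5:**
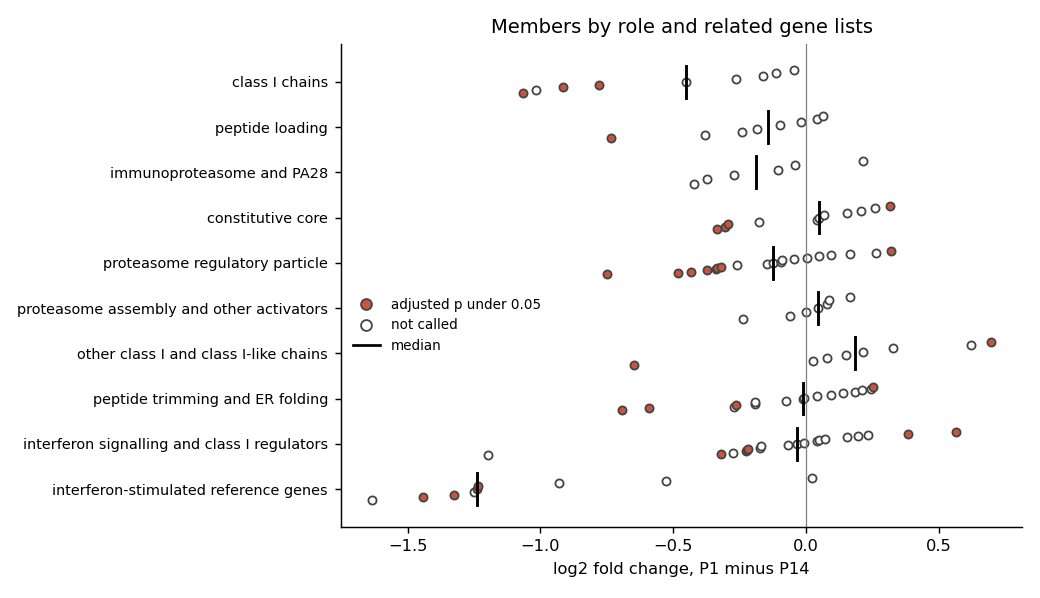
Log2 fold change (P1 minus P14, x axis) of each tested gene of the 4 roles and of 6 related lists (y axis), with a black line at each list's median and filled points at an adjusted p under 0.05. The medians are -0.45 for the class I chains, 0.18 for the other class I and class I-like chains, 0.05 for the constitutive core and -1.24 for the interferon-stimulated genes.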

How the data were processed

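RNA from the sorted cells was measured on Illumina mouse bead arrays. Per the labels and the file headers, the authors deposited one table of linear intensity per probe for the 6 arrays, and it was used here on the log2 scale. Their sorted columns differed by at most 0.472%, so the values had been quantile-normalized between arrays, with background left in (lowest intensity 96.7). Which software made them is not given here. The 24 columns of a further scanner table carry chip positions that match no sample label and were not used, so detection p-values and scan batches were not used either. This replaced the normexp and detection filter of the plan by log2 of the deposited intensities.

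Of 45281 probes, 34885 had 1 gene symbol, 18 had several and 10378 had none in the platform annotation. The 71 member probes include 57 kept. The floor of 127 is the most frequent log2 intensity plus 3 standard deviations of the mirrored lower side. Each gene was fitted through its brightest kept probe by limma 3.58.1 (lmFit, then eBayes; R 4.3.3) with age group as the single term, and tests were two-sided. The fit was tested on simulated data. Members and gene lists were chosen with earlier results of these data known. All members are named, and from each related list up to 3 called genes with the largest change, or the 2 with the highest mean where none was called. Alternatives covered the probe filter and rule, variance model, array weights, replicate block, background, cyclic loess and leaving out each array with probes fixed. The number of arrays limits the precision.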

Additional observations from a re-analysis of the deposited data

How the results depend on the processing

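Leaving out single arrays, the number of members called lower in P1 ranged from 4 to 10 and higher from 0 to 1, and the genes called over the array from 535 to 893 lower and from 518 to 921 higher. The fewest members, 4, came without P1 replicate 3 or without P14 replicate 2, and the fewest genes called without P1 replicate 3. The removal also lowers the number of arrays. With the mean of the kept probes 11 members were lower and 1 higher, against 902 and 949 of all genes. With all kept probes fitted separately 12 members had a lower and 2 a higher probe, against 1246 and 1254 of all genes. There a gene counted when any of its kept probes passed, so a gene with several probes had more chances. The cause of these shifts in the counts was not tested. The Psmb8 to Psmb5 difference turned to -0.0216 with the mean of probes. The other signs that turned belonged to genes that were not called. Without single arrays the log2 fold changes ranged from -0.445 to 0.0267 for H2-D1, from -0.304 to 0.115 for H2-T10, from -0.0745 to 0.0333 for Tapbpl, from -0.0511 to 0.137 for Calr, from -0.0389 to 0.0968 for Pdia3, from -0.109 to 0.0223 for Psme1, from -0.16 to 0.196 for Psmb1, from -0.00501 to 0.0853 for Psmb4 and from -0.0198 to 0.0401 for Psme4. With array weights Psmb1 was -0.0485 and Psme4 -0.00334, and after cyclic loess Psme4 was -0.00213. Over all alternatives, the members' values kept direction and side of the threshold 464 times, lost a call 15 times, gained one 16 times and turned sign 14 times.

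The replicate number is shared between ages. The correlations of same-numbered arrays' deviations were 0.16, 0.0717 and 0.13, and those of differently numbered arrays were -0.151 to -0.016. Every array thus correlated best with its own number. The numbers were not taken as pairs, since not each value exceeded 0.1, but these correlations cannot exclude a pairing. Whether arrays of one number shared a batch was not tested. With the replicate number as a block, 1066 genes were lower and 1124 higher, the members called stayed at 7 lower and 1 higher, and the pair differences kept their values with sign-flip p of 1.0, 0.5 and 0.25, the last being the smallest that 3 pairs allow. Among named genes P4hb lost its call (adjusted p = 0.0571).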
